A study of Mus musculus with 12 samples.

Results

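The gastrointestinal lineage genes *Cym*, *Hnf4a*, *Hnf4g*, *Gkn1*, *Gkn2*, *Tff1*, *Tff2*, *Ctse* and *Lgals4*, 9 in all, were followed through 12 mouse lung tumors by their symbols in the deposited count table, which lists 39017 genes. They were chosen by their known place in stomach and gut and by their read counts in these same tumors, as genes that can appear when lung tumors lose lung identity, so their levels are a description. All 12 tumors were started in mice of C57BL6/J background carrying the Cre-activated alleles of the KP model, *Trp53* Fl/Fl among them, and CCSP-rtTA, with 6000 units of a lentivirus carrying Cre together with doxycycline-inducible PPARαΔ13, which acts as a dominant negative of the nuclear receptor PPARα. KPG1 mice in addition carried floxed *Slc2a1* (Glut1Fl/Fl), the gene of the glucose transporter Glut1. Doxycycline was in the diet (625 mg/kg) for 15 days in the groups labelled KP-PPARαΔ13 and KPG1-PPARαΔ13, whereas KP and KPG1 mice stayed on regular diet, and tumors were taken 26 weeks after initiation. Each group had 3 tumors, and RNA came from dissociated tumors after removal of CD45-positive immune cells. CCSP-rtTA limits induction to cells in which the club cell promoter is active, and the doxycycline itself differed between the groups along with the induction, so that both cannot be told apart.

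The stomach surface is lined by mucous pit cells, which secrete gastrokines and trefoil factors that protect and repair the epithelium, while the deeper glands hold chief cells, which make digestive enzymes, and acid-secreting parietal cells. HNF4α and HNF4γ are nuclear receptors that drive gene expression in gut and liver epithelium, and the lung, which arises from the same foregut endoderm, is instead specified by NKX2-1. In lung tumors, loss of NKX2-1 is known to let FOXA1, FOXA2 and HNF4α turn on a gastric program. The genes were thus considered by role, with the transcription factors *Hnf4a* and *Hnf4g*, the secreted surface proteins *Gkn1*, *Gkn2*, *Tff1* and *Tff2*, the aspartic proteases *Cym* (chymosin, the milk-clotting enzyme of the suckling stomach) and *Ctse* (cathepsin E, made by gastric epithelium and also by some immune cells), and *Lgals4* (galectin-4, a lectin of the gut epithelium).

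In mm10 these genes lie on 6 chromosomes, and 2 neighboring pairs are found among them. *Gkn1* (chromosome 6, 87345650 to 87350942, minus strand) and *Gkn2* (chromosome 6, 87373357 to 87379497, plus strand) are 22414 bases apart with no protein-coding gene between them, and *Tff2* (chromosome 17, 31141049 to 31144282, minus strand) and *Tff1* (chromosome 17, 31161395 to 31165277, minus strand) are 17112 bases apart. *Cym* (107211293 to 107221732, minus strand) and *Hnf4g* (3508030 to 3658052, plus strand) lie far from each other on chromosome 3. *Hnf4a* lies on chromosome 2 (163506808 to 163572910, plus strand), *Ctse* on chromosome 1 (131638306 to 131675505, plus strand) and *Lgals4* on chromosome 7 (28833854 to 28841708, plus strand). Antisense genes overlap *Hnf4a* and *Tff1* and held 20 and 104 reads over all tumors. Whether strand was used in counting is not given in the sources used here, so reads of *Tff1*, which had 104 reads in its lowest tumor, and of its antisense partner cannot be told apart.

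RefSeq promoter windows of GRCm38.p6, the assembly of mm10, were found for *Hnf4a*, which has 2 start sites, *Cym*, *Gkn1*, *Gkn2* and *Lgals4*. The 250 bases before the start of the windows with a motif match are shown, since the levels of neighboring *Gkn1* and *Gkn2* and of *Cym* are compared across the tumors. Capitals mark matches, on either strand, to the letters CAAAGTC for HNF4, TGTTTAC for FOXA, CTCAAG for NKX2-1 and AGATAA for GATA factors, none of which overlap each other here.
Hnf4a, chr2:163506607-163506856, plus strand: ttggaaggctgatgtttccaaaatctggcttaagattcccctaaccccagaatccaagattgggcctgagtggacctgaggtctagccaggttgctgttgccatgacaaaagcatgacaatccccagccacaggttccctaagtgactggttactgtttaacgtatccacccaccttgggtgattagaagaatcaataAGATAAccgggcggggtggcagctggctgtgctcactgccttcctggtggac
Cym, chr3:107221733-107221982, minus strand: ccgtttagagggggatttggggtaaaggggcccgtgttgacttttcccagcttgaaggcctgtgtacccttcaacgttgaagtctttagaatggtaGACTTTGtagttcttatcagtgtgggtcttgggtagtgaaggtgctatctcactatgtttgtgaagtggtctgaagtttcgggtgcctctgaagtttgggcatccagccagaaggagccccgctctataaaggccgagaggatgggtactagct
Gkn1, chr6:87350916-87351165, minus strand: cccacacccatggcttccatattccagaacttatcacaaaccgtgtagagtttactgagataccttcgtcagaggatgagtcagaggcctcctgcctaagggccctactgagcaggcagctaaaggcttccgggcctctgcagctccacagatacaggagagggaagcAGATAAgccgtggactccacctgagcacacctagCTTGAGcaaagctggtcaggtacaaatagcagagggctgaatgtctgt
Gkn2, chr6:87373115-87373364, plus strand: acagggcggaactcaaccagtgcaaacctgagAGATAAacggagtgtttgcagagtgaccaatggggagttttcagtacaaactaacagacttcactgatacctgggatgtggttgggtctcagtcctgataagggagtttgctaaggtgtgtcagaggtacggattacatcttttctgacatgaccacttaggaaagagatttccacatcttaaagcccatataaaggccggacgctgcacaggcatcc
The *Hnf4a* sequence belongs to its upstream start site, with a GATA match from -52 to -47 counted from the start. *Cym* held the HNF4 letters on the opposite strand from -154 to -148. *Gkn1* held a GATA match from -82 to -77 and the NKX2-1 letters on the opposite strand from -48 to -43, and *Gkn2* a GATA match from -218 to -213. Of 32851 promoters, the HNF4 letters were present in 3.84%, the FOXA letters in 3.17%, the NKX2-1 letters in 13.3% and the GATA letters in 9.99%. The downstream *Hnf4a* window and *Lgals4* had none of these letters. *Hnf4g*, *Tff1*, *Tff2* and *Ctse* were not matched to a promoter in the table.

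The total count per tumor was 25263794 to 32654223. *Slc2a1*, the gene deleted in KPG1 tumors, had 35.3 to 57.7 CPM (counts scaled to a common library size after TMM normalization) in KP and 30.2 to 63.95 CPM in KPG1, so its RNA did not separate these labels. With doxycycline it was at 108 to 152 CPM in the former genotype and at 23.7 to 54.5 CPM in the latter. *Ppara*, which can collect reads of the mouse PPARαΔ13 transgene, had 2.71, 64.6 and 246 CPM in the KP-PPARαΔ13 group and 8.90, 19.2 and 17.7 CPM in the KPG1-PPARαΔ13 group, against 7.24 to 15.7 CPM over the 6 tumors on regular diet. The first replicate labelled KP-PPARαΔ13 therefore lay below every tumor on regular diet, and groups are named by their labels throughout. A number in the labels, read as that of the mouse, gave 9 mice, with replicates 1 and 2 of KP, 1 and 2 of KPG1, and 1 and 3 of KPG1-PPARαΔ13 each from 1 mouse. KP tumors were all from females, KPG1 tumors all from males, and the doxycycline groups held both sexes. Nothing in the labels says more about how separate the tumors were, so p-values measure the spread between tumors, some of which share a mouse.

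Lung lineage transcripts were abundant in every tumor. *Nkx2-1*, the lung lineage factor, ranged from 208.5 to 533 CPM, and the surfactant gene *Sftpc* from 5540 to 29950 CPM, with the lowest value of both in KP-PPARαΔ13 replicate 1. Of 23 lung lineage genes, 20 were at 1 CPM or more in every tumor. Their level was not the same in all groups, and 11 of the 23, among them *Sftpc*, *Sftpd*, *Sftpa1*, *Abca3* and *Ager*, were lower in KPG1-PPARαΔ13 than in KPG1 without overlap, as were 9.41% of all genes. Single tumors differed too. KP replicate 2 had the lowest *Ager*, *Pdpn*, *Aqp5* and *Hopx* of all tumors. They were at 154, 2.33, 10.3 and 7.25 CPM there, against medians of 1188, 80.5, 301 and 51.1 CPM. The same tumor had 284 CPM of *Nkx2-1* and the highest level of the airway gene *Scgb3a2*, 71.1 CPM. The epithelial marker *Epcam* was at 298 to 623 CPM. *Ptprc*, which encodes CD45, was at 1.88 to 31.5 CPM, and the T cell gene *Cd3e* at no more than 0.241 CPM. The 9 genes are therefore called gastric-lineage genes by their names alone, and they were measured in tumors that also held abundant lung transcripts. In bulk RNA, fewer cells of a type and less RNA per cell cannot be told apart.

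Which of the genes were present differed little between tumors, and how much of each was present differed a lot. *Hnf4a*, *Gkn1*, *Gkn2*, *Tff1*, *Ctse* and *Lgals4* were at 1 CPM or more in all 12 tumors, *Cym* in 5, *Tff2* in 1 and *Hnf4g* in none. The 6 tumors on regular diet thus had 6 of the 9 genes each at this level. With doxycycline, the 3 tumors of KP-PPARαΔ13 had 6, 7 and 7 and those of KPG1-PPARαΔ13 had 7, 8 and 7. The tumor with 8 was KPG1-PPARαΔ13 replicate 2, which was alone in reaching 1 CPM of *Tff2*.

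**Figure D1:**
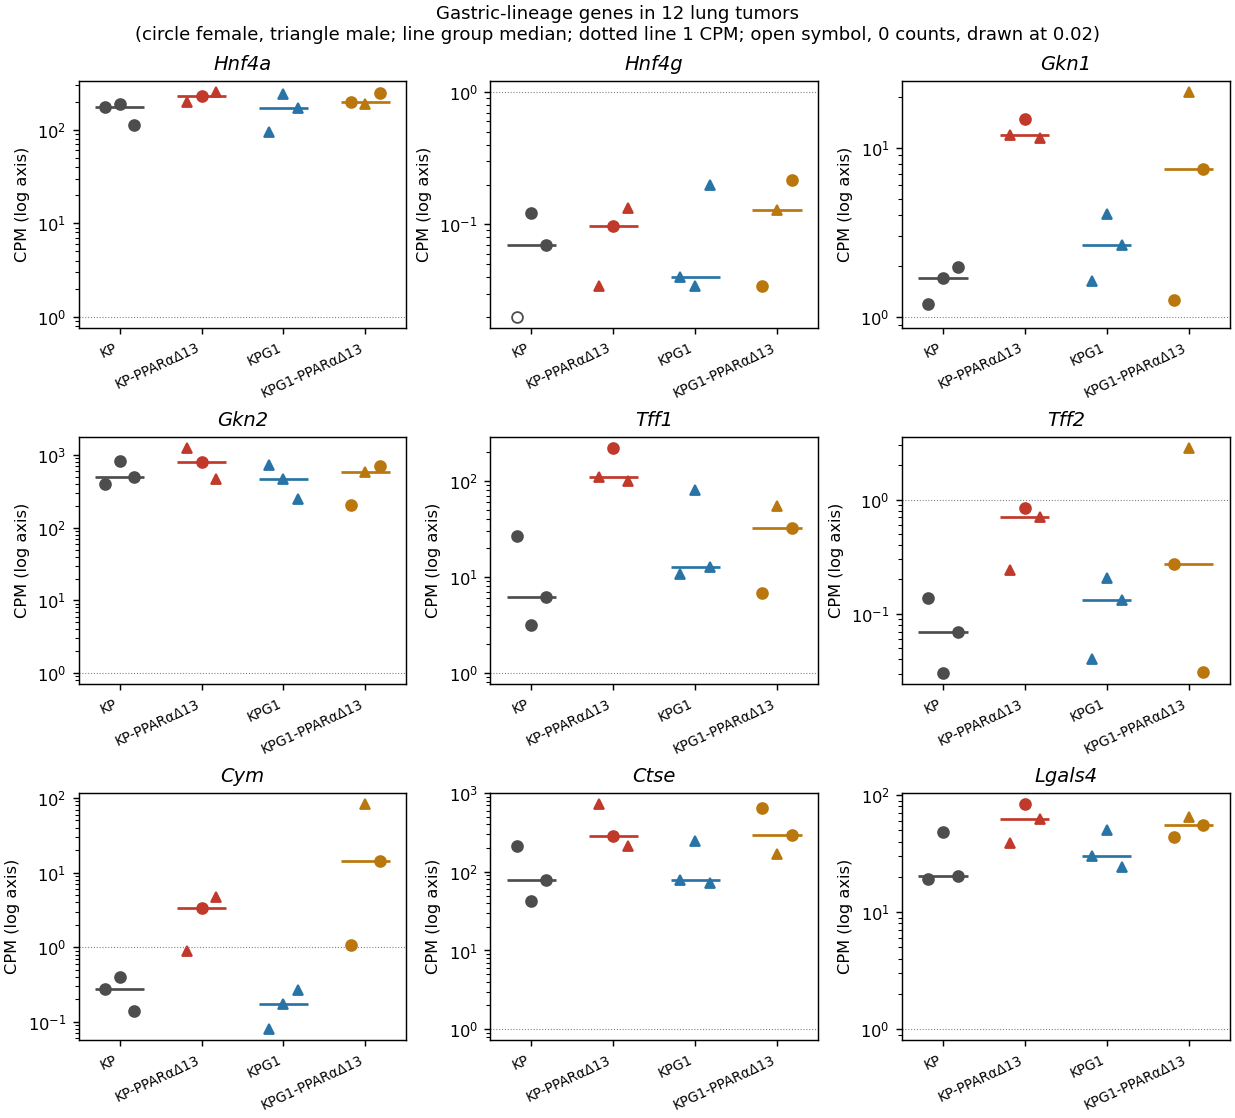
Level of each of the 9 genes in each of the 12 tumors in CPM on a log axis, by group, with circles for tumors from females, triangles for males, a line at the group median and an open circle drawn at 0.02 for 0 counts. *Cym* was at 0.891 CPM or more in all 6 doxycycline tumors and at 0.394 CPM or less in all 6 on regular diet, whereas *Hnf4a* was at 95.5 CPM or more and *Gkn2* at 205 CPM or more in every tumor.

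Per length of transcript, expressed as TPM, the read count per base of exon scaled to a common sum, the genes spanned a wide range. *Gkn2* was the most abundant with a mean of 2658 ± 1369 TPM (SD, n = 12), which ranked 19 among 37607 annotated genes. *Ctse* (279 ± 248 TPM) and *Tff1* (269 ± 319 TPM) followed and did not differ beyond their spread. *Hnf4a* (136 ± 34.1 TPM) and *Lgals4* (67.8 ± 30.4 TPM) came next. *Cym* (26.1 ± 68.8 TPM) and *Gkn1* (18.8 ± 18.9 TPM) overlapped widely, and their order depended on KPG1-PPARαΔ13 replicate 2, without which *Cym* had 6.50 ± 11.97 TPM and *Gkn1* 14.9 ± 13.9 TPM (SD, n = 11). The median was 1.92 TPM for *Cym* and 8.25 TPM for *Gkn1*. *Tff2* (2.77 ± 4.89 TPM) and *Hnf4g* (0.121 ± 0.0904 TPM) were the lowest. The level of *Gkn2* per length was 43.6 to 775 times that of its neighbor *Gkn1*.

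**Figure D2:**
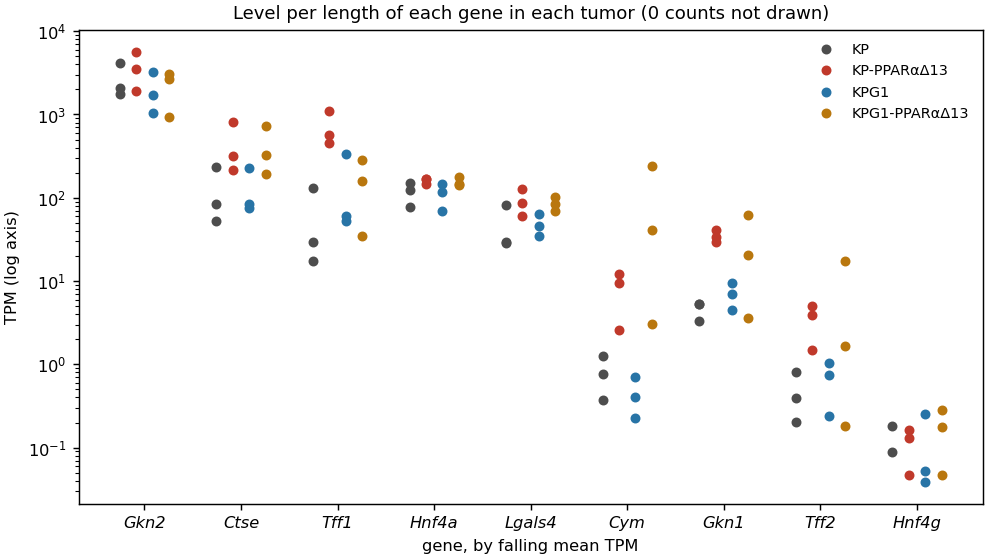
Level per transcript length of each gene in TPM on a log axis, in order of falling mean, with 1 point per tumor colored by group and tumors with 0 counts not drawn. *Gkn2* was at 932 TPM or more in all 12 tumors, and *Cym* covered 0.224 to 241 TPM.

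The genes varied to very different degrees. On the log2 CPM scale, *Cym* had a range of 9.13 over the 12 tumors, wider than that of 99.8% of the 16527 genes tested, and *Tff1* one of 6.09, wider than 97.9%. *Tff2*, *Ctse* and *Gkn1* had ranges of 4.89, 4.08 and 4.07. By contrast, the ranges of *Gkn2* (2.60) and *Lgals4* (2.11) were closer to that of the median gene (1.53), and the range of *Hnf4a* lay below it, wider than that of 45.0% of genes.

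*Hnf4a* was at 173, 187 and 113 CPM in KP, 199, 231 and 252 CPM in KP-PPARαΔ13, then 95.5, 242 and 169.6 CPM in KPG1, and 199, 188 and 247 CPM in KPG1-PPARαΔ13. Every KP-PPARαΔ13 tumor was above every KP tumor, while the KPG1 groups overlapped. The log2 fold change with doxycycline was 0.53 in KP (SE 0.306, adjusted p = 0.552 by quasi-likelihood in edgeR, over all genes tested) and 0.32 in KPG1 (SE 0.305, adjusted p = 0.722). Its relative *Hnf4g* had 0 to 7 reads per tumor and did not pass the filter on low counts, which needed about 10 reads in 3 tumors.

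*Gkn1*, a gastrokine of pit cells, was at 1.20, 1.698 and 1.98 CPM in KP against 11.8, 14.6 and 11.4 CPM in KP-PPARαΔ13, with no overlap. In KPG1 it was at 1.64, 4.03 and 2.64 CPM, and in KPG1-PPARαΔ13 at 1.26, 21.2 and 7.42 CPM, where replicate 1 stood below all KPG1 tumors and the other replicates above them. The log2 fold change with doxycycline was 2.95 in KP (SE 0.768, adjusted p = 0.305 from edgeR) and 1.84 in KPG1 (SE 0.736, adjusted p = 0.428). Without KPG1-PPARαΔ13 replicate 2 the latter was 0.65.

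Its neighbor *Gkn2* did not separate the groups. It was at 401, 829.9 and 495 CPM in KP, 1245, 796 and 474 CPM in KP-PPARαΔ13, then 742, 464 and 248 CPM in KPG1, and 205, 583 and 706 CPM in KPG1-PPARαΔ13. All 4 groups overlapped. The log2 fold changes with doxycycline were 0.54 in KP (SE 0.526) and 0.04 in KPG1 (SE 0.525), with adjusted p = 0.763 and 0.987 from edgeR.

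*Tff1*, the trefoil factor of pit cells, was at 26.9, 3.15 and 6.16 CPM in KP and 111, 219.7 and 99.4 CPM in KP-PPARαΔ13, again with no overlap. In KPG1 it was at 10.7, 79.9 and 12.8 CPM, and in KPG1-PPARαΔ13 at 6.82, 54.8 and 32.8 CPM, so that both the KPG1 and the KPG1-PPARαΔ13 tumors were below all KP-PPARαΔ13 tumors. The log2 fold change with doxycycline was 3.57 in KP (SE 1.05, adjusted p = 0.308 from edgeR) and -0.13 in KPG1 (SE 0.949, adjusted p = 0.974), and the latter was 1.39 without KPG1 replicate 2. The difference between the genotypes in this change was -3.70 (SE 1.39, adjusted p = 0.375).

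*Tff2*, the trefoil factor of mucous neck cells, was close to the limit of detection, with 1 to 6 reads in each tumor on regular diet. It was at 0.240, 0.839 and 0.704 CPM in KP-PPARαΔ13 (7 to 26 reads) and at 0.273, 2.82 and 0.0308 CPM in KPG1-PPARαΔ13, where replicate 2 held 88 reads and replicate 3 held 1. No tumor on regular diet reached the level of the filter, 0.335 CPM, so *Tff2* was tested only because of doxycycline tumors. Its log2 fold changes of 2.87 in KP (SE 1.28, adjusted p = 0.43 from edgeR) and 2.98 in KPG1 (SE 1.23, adjusted p = 0.435) rest on these few reads, and the latter was 0.22 without KPG1-PPARαΔ13 replicate 2.

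*Cym* had the widest range of the 9. It was at 0.274, 0.394 and 0.139 CPM in KP and 0.0800, 0.172 and 0.264 CPM in KPG1, or 2 to 13 reads, against 0.891, 3.33 and 4.66 CPM in KP-PPARαΔ13. In the KPG1-PPARαΔ13 group it reached 1.06, 82.2 and 14.5 CPM. It was the one gene of the 9 for which all 6 doxycycline tumors lay above all 6 tumors on regular diet, as was the case for 0.266% of all genes tested. KPG1-PPARαΔ13 replicate 2, with 2568 reads, stood far above the rest. The log2 fold change with doxycycline was 3.43 in KP (SE 1.21, adjusted p = 0.35 from edgeR) and 7.51 in KPG1 (SE 1.43, adjusted p = 0.386), and the latter was 5.45 without KPG1-PPARαΔ13 replicate 2. As 1 tumor on regular diet reached the filter level, *Cym* too was tested because of its doxycycline tumors.

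*Ctse* was at 213, 42.5 and 79.5 CPM in KP, 720.3, 286 and 210.1 CPM in KP-PPARαΔ13, then 77.8, 247 and 71.1 CPM in KPG1, and 642, 167 and 297 CPM in KPG1-PPARαΔ13. The groups of each genotype overlapped through 1 tumor on regular diet, and the log2 fold changes were 1.86 (SE 0.744, adjusted p = 0.394 from edgeR) and 1.48 (SE 0.736, adjusted p = 0.499). Replicate 1 was the highest of both doxycycline groups. *Lgals4* was at 19.3, 48.5 and 20.5 CPM in KP, 39.1, 83.4 and 62.2 CPM in KP-PPARαΔ13, then 30.5, 50.3 and 24.1 CPM in KPG1, and 44.3, 65.5 and 55.8 CPM in KPG1-PPARαΔ13. Here too 1 tumor on regular diet in each genotype overlapped the doxycycline tumors, and the log2 fold changes were 1.06 (SE 0.414, adjusted p = 0.381) and 0.66 (SE 0.411, adjusted p = 0.585).

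Taking the comparisons as wholes, none of the 8 genes tested passed an adjusted p of 0.05 with edgeR in KP-PPARαΔ13 against KP, where 1 gene of all those tested did (0.00605%). Of the 8, 6 had an unadjusted p under 0.05, against 11.4% of all genes, and DESeq2 called *Cym*, *Gkn1* and *Tff1*, with 2.25% of all genes called. All 8 had a positive fold change, with a median of 2.36 on the log2 scale beside -0.01 over all genes. *Cym*, *Hnf4a*, *Gkn1*, *Tff1* and *Tff2*, 5 of the 8, were above KP without overlap, as were 6.55% of all genes, and none was below (6.70% of all). In KPG1-PPARαΔ13 against KPG1, no gene of the 8 was called by edgeR (0.00605% of all genes), 3 had an unadjusted p under 0.05 (10.8% of all), DESeq2 called *Cym* (1.28% of all), and *Cym* was above KPG1 without overlap (11.2% of all) and none below it (9.41% of all). The median was 1.07 beside 0.02 over all genes. Single tumors moved these values, since in KP-PPARαΔ13 against KP the log2 fold change was 4.95 for *Tff1* and 2.73 for *Ctse* without KP replicate 1, and 1.15 for *Ctse* without KP-PPARαΔ13 replicate 1. Nothing is read from these shares, since the genes were chosen with their levels known. With the diet averaged over both genotypes, a comparison added after seeing the data, edgeR called none of the 8 (0.0182% of all genes), 6 had an unadjusted p under 0.05 (10.1% of all), and the log2 fold change was largest for *Cym* at 5.47 (SE 0.927, adjusted p = 0.113) and *Gkn1* at 2.40 (SE 0.531, adjusted p = 0.202). DESeq2 called *Ctse*, *Cym* and *Gkn1* there, with 1.74% of all genes called. Without KPG1-PPARαΔ13 replicate 1, the doxycycline tumor with the lowest *Gkn1*, edgeR called *Cym* (5.75, adjusted p = 0.01425) and *Gkn1* (2.66, adjusted p = 0.03515), with 0.0355% of all genes called. Leaving out a doxycycline tumor low in these genes raises their fold changes by itself, so nothing is read from these calls. On counts simulated for the 16527 genes in KP-PPARαΔ13 against KP, edgeR recovered 2% of genes at a 2-fold change, 48% at 4-fold, 72% at 8-fold and 90% at 16-fold. The genes changed in the simulation were drawn at random from those tested. Several of the 8, such as *Cym* and *Tff1*, varied more between tumors than most genes, so these shares need not hold for them.

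**Figure D3:**
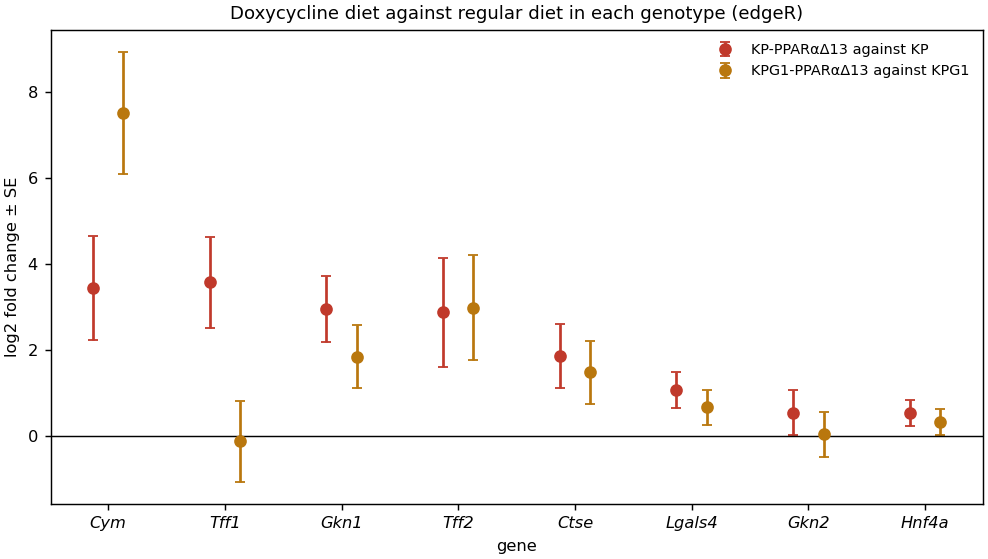
Log2 fold change between doxycycline and regular diet in KP and in KPG1 tumors for the 8 genes tested, with bars of 1 standard error from edgeR. In KP all 8 were positive, from 0.53 for *Hnf4a* to 3.57 for *Tff1*, and in KPG1 they ran from -0.13 for *Tff1* to 7.51 for *Cym*.

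The sexes differed between the groups compared, so values within a sex were set side by side. In females, the 1 KP-PPARαΔ13 tumor (replicate 2) had 14.6 CPM of *Gkn1*, 219.7 CPM of *Tff1*, 3.33 CPM of *Cym* and 83.4 CPM of *Lgals4*, each above all 3 KP tumors. *Hnf4a*, *Tff2* and *Ctse* in this tumor were also above all 3, while *Gkn2* (796 CPM) was below KP replicate 2. In males, the 1 KPG1-PPARαΔ13 tumor (replicate 2) had 21.2 CPM of *Gkn1*, 82.2 CPM of *Cym* and 65.5 CPM of *Lgals4*, above all 3 KPG1 tumors, as was *Tff2*. Its *Tff1* (54.8 CPM), *Hnf4a* (188 CPM), *Ctse* (167 CPM) and *Gkn2* (583 CPM) lay between the KPG1 tumors. Each sex thus set 1 tumor against 3, for genes chosen with their levels known. The share of all genes with such an order was not computed, and nothing is read from these orders.

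Between the genotypes on the same diet, none of the 8 genes was called by edgeR, and sex and genotype cannot be told apart in KPG1 against KP. On regular diet, edgeR called none of the 8 (0.0363% of all genes), none had an unadjusted p under 0.05 (6.23% of all) and DESeq2 called none (0.363% of all). No gene of the 8 lay above (4.82% of all genes) or below (5.13% of all) KP without overlap. The log2 fold changes ran from -0.62 for *Cym* to 1.51 for *Tff1* (SE 0.973, adjusted p = 0.815). With doxycycline, edgeR called none (0.0303% of all genes), 2 had an unadjusted p under 0.05 (9.69% of all), and DESeq2 called *Cym* (0.938% of all), which was higher in KPG1-PPARαΔ13 with a log2 fold change of 3.46 (SE 1.14, adjusted p = 0.476 from edgeR). This value fell to 1.4 without KPG1-PPARαΔ13 replicate 2. *Tff1* was lower in KPG1-PPARαΔ13 without overlap (7.25% of all genes) and none was higher so (10.3% of all). Its log2 fold change was -2.19 (SE 0.989, adjusted p = 0.513). For the difference of the diet effect between genotypes, edgeR called no gene of the 8 (0% of all genes), 2 had an unadjusted p under 0.05 (11.8% of all), and DESeq2 called none (1.73% of all).

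Tumors of the same mouse could differ several-fold in some of the genes. In the KP mouse with 2 tumors, *Tff1* differed 8.54-fold and *Ctse* 5.01-fold, with replicate 1 the higher for both, while *Hnf4a* differed 1.08-fold. In the KPG1 mouse, *Tff1* differed 7.48-fold, *Ctse* 3.17-fold and *Hnf4a* 2.53-fold, with replicate 2 the higher for each. In the KPG1-PPARαΔ13 mouse, *Cym* differed 13.7-fold and *Gkn1* 5.88-fold, with replicate 3 the higher, and *Ctse* 2.16-fold in the opposite direction.

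The order of the doxycycline tumors by *Ppara* was shared by some of the gastric-lineage genes and reversed in others. In KPG1-PPARαΔ13, *Gkn1*, *Tff1*, *Tff2* and *Cym* were all highest in replicate 2, which also had the highest *Ppara*. Its *Ppara* was close to that of replicate 3 (19.2 and 17.7 CPM). *Lgals4* was highest in replicate 2 as well, whereas *Hnf4a* (188 CPM) and *Ctse* (167 CPM) were lowest there. In KP-PPARαΔ13, *Cym* and *Hnf4a* were lowest in replicate 1 and highest in replicate 3, like *Ppara*. *Ctse* and *Gkn2* ran the opposite way, highest in replicate 1 and lowest in replicate 3. *Tff1*, *Gkn1*, *Tff2* and *Lgals4* were in neither order. KP-PPARαΔ13 replicate 1, with the lowest *Ppara* of all tumors, had 111 CPM of *Tff1* and 11.8 CPM of *Gkn1*. Both values were close to those of replicate 3, which had the highest *Ppara*. KPG1-PPARαΔ13 replicate 1 had the lowest *Gkn1*, *Gkn2* and *Tff1* of its group together with the highest *Nkx2-1* of all tumors (533 CPM) and 8.90 CPM of *Ppara*. Over the 6 doxycycline tumors, Pearson's r with *Ppara* on log2 CPM was 0.29 for *Gkn1* and 0.28 for *Cym*. Over the 6 tumors on regular diet it was -0.05 and 0.70. Any relation to the transgene was not tested.

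Across the 12 tumors the genes tended to move together, with *Gkn2* the most weakly tied to the others. Over the 28 pairs, Pearson's r on log2 CPM had a median of 0.53 and ran from -0.04 to 0.81, and it was positive in 25. The 21 pairs without *Gkn2* had a median of 0.56, and those with it 0.16. These are descriptions given with no p, since the genes were chosen with these levels known and some tumors share a mouse. *Gkn1* and *Tff1* had r = 0.81 and Spearman's rho = 0.76, and r = 0.80 without the 2 tumors farthest from the median of *Gkn1*. Within the 6 tumors of each diet, r was 0.49 on regular diet and 0.86 with doxycycline. *Gkn1* and *Cym* had r = 0.77 over all tumors but -0.13 on regular diet, where *Cym* had at most 13 reads, and 0.54 with doxycycline. *Gkn1* and its neighbor *Gkn2* had r = 0.47 (rho 0.43), which was -0.32 on regular diet and 0.77 with doxycycline.

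Genes whose log2 CPM followed the mean z-score of the 8 tested genes most closely over the 12 tumors were *Qrfp* (r = 0.91), *Abhd12* (0.91), *Gsta1* (0.90), *St8sia3* (0.90) and *Fam3b* (0.89). The lowest were *Dnajc12* (-0.90), *Zfp456* and *Gm20692* (-0.86 each), *Cmya5* (-0.85) and *Gm12766* (-0.84). *Abhd12*, which encodes a lysophospholipid hydrolase, was at 32.8 to 73.1 CPM and had r = 0.78 within regular diet and 0.81 within doxycycline. *Qrfp*, a neuropeptide gene, was below 4 CPM throughout, with r = 0.11 and 0.98. *Dnajc12*, a co-chaperone gene, was at 3.87 to 16.9 CPM, with r = -0.75 and -0.83.

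Other gastric genes were mostly unlike the 9. Of 27 in the table, 19 were tested, 8 were at 1 CPM or more in every tumor, and none was called by edgeR in any comparison. Of the 19, 1 to 4 had an unadjusted p under 0.05, against 6.23% to 11.8% of all genes. DESeq2 called *Anxa10* and *Onecut2* in KP-PPARαΔ13 against KP (2.25% of all genes) and *Tff3* in KPG1-PPARαΔ13 against KPG1 (1.28% of all). Their median log2 fold change with doxycycline was 0.15 in KP and 0.20 in KPG1, beside -0.01 and 0.02 over all genes. Genes of the gastric glands differed in presence. *Pgc*, a pepsinogen gene, was at 1.77 to 16.3 CPM in the 12 tumors, with 2343 reads in all. Which cells expressed it was not tested. *Atp4a*, the catalytic subunit of the parietal cell proton pump, had 206 reads. *Atp4b*, the other subunit of that pump, had 0 reads, *Lipf*, the gastric lipase of chief cells, had 3 reads and *Muc6*, the mucin of neck cells, had 1 read over all 12 tumors. *Muc1* (81.8 to 1429 CPM) and *Tspan8* (254 to 698 CPM) were abundant, and *Muc5ac*, the pit cell mucin, was at 1.88 to 68.8 CPM.

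*Onecut2*, which encodes a homeodomain transcription factor, was at 0.274, 1.03 and 5.29 CPM in KP, 50.7, 44.1 and 45.0 CPM in KP-PPARαΔ13, then 0.320, 6.88 and 2.18 CPM in KPG1, and 2.97, 55.5 and 132 CPM in KPG1-PPARαΔ13. Of the other gastric genes it followed the mean z-score most closely, with r = 0.85 over the 12 tumors. Its r with *Gkn1* was 0.89 (rho 0.85, and 0.91 without the 2 tumors farthest from its median), and 0.83 and 0.82 within regular and doxycycline diet. *Anxa10*, an annexin of gastric epithelium chosen after its values were seen, came next with r = 0.81 and ranged from 0.171 to 21.8 CPM.

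Several other gastric genes had high tumors of their own. *Tff3*, the trefoil factor of intestinal goblet cells, reached 107.5 CPM in KP replicate 2, 53.3 in KPG1-PPARαΔ13 replicate 1 and 137 in replicate 2, and stayed at or under 11.1 CPM in the other tumors. *Agr2*, which helps to fold mucins, was at 304 CPM in KP replicate 2 and at no more than 46.8 CPM in the others. *Gata4*, a foregut transcription factor, ranged from 0.120 to 34.9 CPM, with the 3 highest values in KP replicate 1, KPG1 replicate 3 and KPG1-PPARαΔ13 replicate 1.

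**Figure D4:**
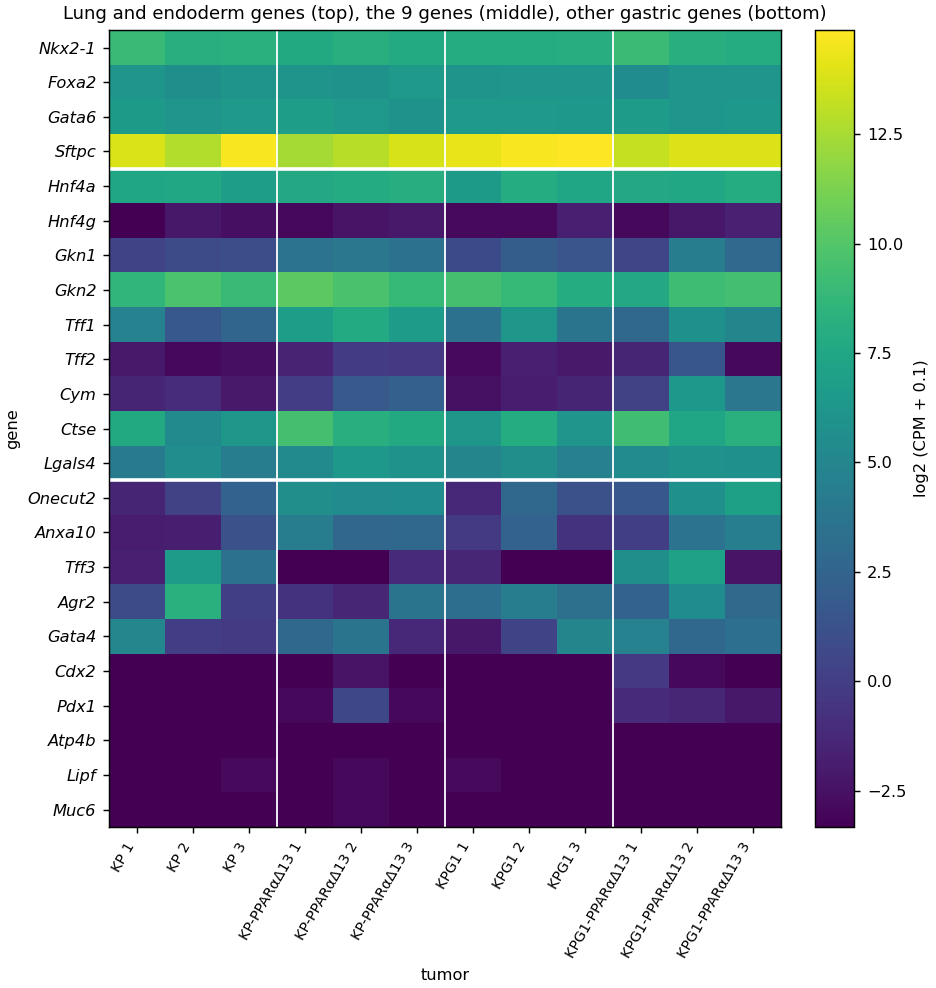
Levels of lung and endoderm genes, the 9 gastric-lineage genes and other gastric genes in each tumor, as log2 of CPM + 0.1. *Sftpc* and *Nkx2-1* were high in every tumor, *Onecut2* and *Anxa10* were brighter in 5 of the 6 doxycycline tumors than in any tumor on regular diet, and *Atp4b*, *Lipf* and *Muc6* were dark throughout.

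Among factors of lung and gut, *Foxa1*, at 42.2 to 153 CPM, *Foxa2*, at 45.9 to 87.8 CPM, and *Gata6*, at 66.5 to 112 CPM, were present in all tumors. The intestinal factor *Cdx2* was at no more than 0.716 CPM, *Pdx1*, of antrum, duodenum and pancreas, at no more than 1.42 CPM, and *Sox2*, of stomach and airway, at no more than 0.672 CPM, with few reads each. *Prox1*, a homeobox factor of liver and other organs, was at 0.240 to 2.37 CPM in 11 tumors and at 23.7 CPM in KPG1-PPARαΔ13 replicate 3. Of 25 intestinal and hepatic genes tested, none was called by edgeR in any comparison. Of these 25, 4 to 9 had an unadjusted p under 0.05, against 6.23% to 11.8% of all genes. The 9 were in KPG1-PPARαΔ13 against KPG1 (10.8% of all genes). The median log2 fold change of the 25 with doxycycline was -0.33 in KP, where 14 were negative, and 0.72 in KPG1. In the latter, 21 were positive and 6 lay above KPG1 without overlap (11.2% of all genes). DESeq2 called *Krt20* in KP (2.25% of all genes) and *Fabp1*, *Reg4* and *Slc5a1* in KPG1 (1.28% of all). Of these, *Slc5a1* was lower with doxycycline, and it was the 1 gene below KPG1 without overlap (9.41% of all genes). It was at 14.8, 17.5 and 27.9 CPM in KPG1 and at 3.41, 1.06 and 3.69 CPM in KPG1-PPARαΔ13. *Krt20*, a keratin of differentiated gut epithelium, was at 47.7, 29.7 and 58.3 CPM in KP-PPARαΔ13 and 5.96, 1.00 and 6.23 CPM in KP. In KPG1 it was at 2.48, 26.8 and 3.34 CPM and in KPG1-PPARαΔ13 at 2.25, 27.7 and 22.2 CPM, which overlapped.

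*Nkx2-1* itself was at 487, 284 and 293 CPM in KP, 208.5, 272 and 224 CPM in KP-PPARαΔ13, then 245, 249 and 263 CPM in KPG1, and 533, 288 and 243 CPM in KPG1-PPARαΔ13. It was lower in KP-PPARαΔ13 than in KP without overlap, as were 6.70% of all genes, and the 3 KPG1 tumors also lay below the 3 KP tumors, as for 5.13% of all genes. Its r with *Gkn1* was -0.58 over the 12 tumors (rho -0.49) and -0.27 without the 2 tumors farthest from its median, KP replicate 1 and KPG1-PPARαΔ13 replicate 1, so it rests on these tumors. Within each diet it was -0.67 on regular diet and -0.80 with doxycycline. The former includes KP replicate 1 and the latter KPG1-PPARαΔ13 replicate 1, so these values are not free of those tumors. Of the 23 lung lineage genes tested, none was called by edgeR in any comparison. At most 6 had an unadjusted p under 0.05, against 6.23% to 11.8% of all genes. DESeq2 called *Lamp3* in KPG1-PPARαΔ13 against KPG1 (1.28% of all genes). The median log2 fold change of the 23 with doxycycline was -0.37 in KP, where 16 of the 23 were negative, and -0.80 in KPG1, where 17 were.

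**Figure D5:**
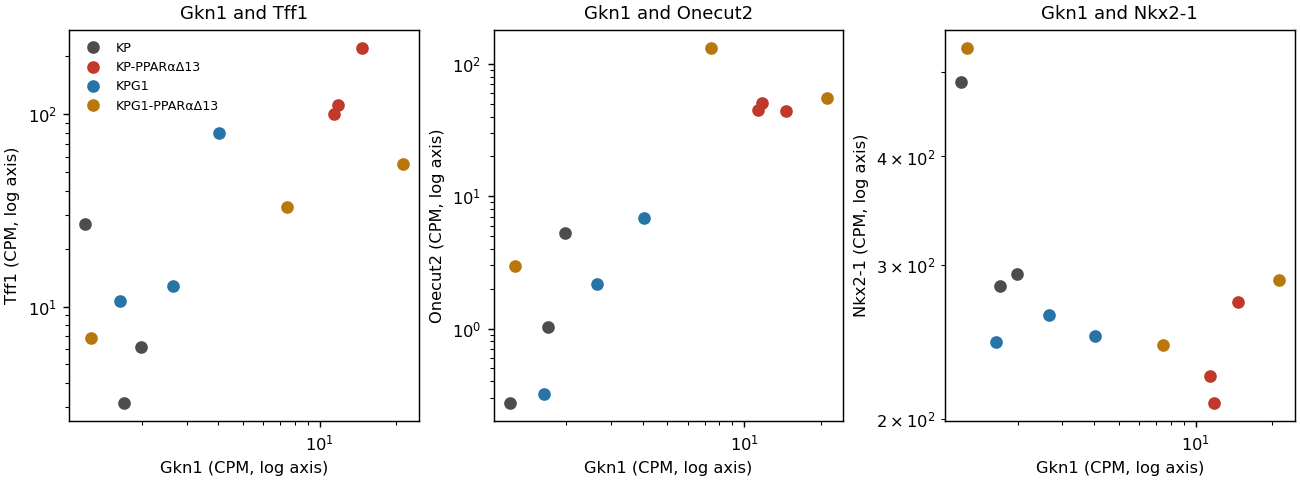
CPM of *Gkn1* against *Tff1*, *Onecut2* and *Nkx2-1* in the 12 tumors, on log axes and colored by group. *Tff1* and *Onecut2* were higher in tumors with more *Gkn1* (r = 0.81 and 0.89 on log2 CPM), and the 2 tumors with the highest *Nkx2-1* had the lowest *Gkn1*.

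Markers of other cells were examined beside these values. The summed level of 4 mesothelial markers was 2.94 to 43.1 CPM in KP and 159 to 295 CPM in KP-PPARαΔ13, which came from *Msln* (158 to 294 CPM in KP-PPARαΔ13), a gene also made by some carcinomas, while the mesothelial genes *Wt1* and *Upk3b* were at no more than 0.226 and 2.39 CPM in any tumor. The same sum was 15.2 to 94.7 CPM in KPG1 and 6.69 to 61.8 CPM in KPG1-PPARαΔ13. The 5 erythroid genes summed to 319 to 765 CPM in KP and 850 to 1320 CPM in KP-PPARαΔ13, and to 629 to 962 CPM in KPG1 and 731 to 1421 CPM in KPG1-PPARαΔ13. The 8 leukocyte markers summed to 734 to 2909 CPM in KP and 387 to 4285 CPM in KP-PPARαΔ13, of which *Lyz2*, a lysozyme gene of macrophages and also of alveolar type II cells, made up 89.3% to 98.4%. The other leukocyte markers together were at 33 to 78.7 CPM over the 12 tumors. All 8 summed to 469 to 2089 CPM in KPG1 and 201 to 1992 CPM in KPG1-PPARαΔ13. The 6 endothelial markers summed to 120 to 289.5 CPM in KP and 89.8 to 558.5 CPM in KP-PPARαΔ13. Their sum was 108 to 327 CPM in KPG1 and 107 to 167 CPM in KPG1-PPARαΔ13. With doxycycline, all 6 had a positive fold change in KP and a negative fold change in KPG1. For each of the 6, KP-PPARαΔ13 replicate 3 was the highest of all tumors. The median sum was lower in KP-PPARαΔ13 (159 CPM) than in KP (274 CPM). The 7 fibroblast markers summed to 99.2 to 297 CPM in KP and 242 to 444 CPM in KP-PPARαΔ13, and to 86.6 to 376 CPM in KPG1 and 136 to 425 CPM in KPG1-PPARαΔ13. *Col1a1* and *Col1a2*, the type I collagen genes, were higher in KP-PPARαΔ13 than in KP without overlap (6.55% of all genes), as was no other of the 7. There 2 of the 7 had a negative fold change, and in KPG1-PPARαΔ13 against KPG1 5 had. Of 19 late-stage and mesenchymal tumor genes, 18 had a positive fold change in KP-PPARαΔ13 against KP, with a median of 0.66 on the log2 scale. *Slc4a11*, *Cldn2*, *Cldn4*, *Krt19*, *Tigit* and *Runx2*, 6 of the 19, lay above KP without overlap, as did 6.55% of all genes. EdgeR called none of the 19 there, 3 had an unadjusted p under 0.05 (11.4% of all genes), and DESeq2 called *Slc4a11* (2.25% of all). In KPG1-PPARαΔ13 against KPG1, 15 were positive, with a median of 0.29. Only *Hmga2* lay above KPG1 without overlap there (11.2% of all genes). The 6 squamous genes summed to 5.88 to 19.4 CPM in KP and 15.4 to 77.8 CPM in KP-PPARαΔ13, and to 5.20 to 10.4 CPM in KPG1 and 28.0 to 54.3 CPM in KPG1-PPARαΔ13. The largest part of these sums was *Sprr1a* (2.72 to 42.5 CPM). *Krt5*, *Trp63* and *Dsg3* were at no more than 0.677, 0.890 and 0.302 CPM in any tumor. In KPG1-PPARαΔ13, *Sprr1a* and *Krt14* lay above KPG1 without overlap (11.2% of all genes) and *Trp63* below it (9.41% of all). The part of these cells and genes in the levels of the gastric-lineage genes was not tested.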

How the data were processed

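RNA-seq was from the CD45-negative fraction of 12 lung tumors, made with a stranded mRNA kit and single-end reads. Reads were aligned to mm10 by the authors with HISAT2, and raw read counts of each gene were deposited. The submitters' processing notes list HISAT2, bcl2fastq 2.17, cutadapt 1.4.2, featureCounts 1.4.4 and edgeR. The counting annotation and strand setting are not given in the sources used here. The deposited log2 values were not used. The 12 tumor files were equal to the combined table, in which 13548 of 39017 genes have no count and all 37 mitochondrial genes are at 0. Total counts were 25263794 to 32654223, and intervals or floors from counts cover counting error only.

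The 9 genes and all gene lists were chosen with earlier results of these data known. Named genes are the 9, *Slc2a1* and *Ppara*, up to 4 genes per list with the widest range, a fixed set of endoderm and lung factors, and the 5 genes most and least like the 9. Others were chosen after their values were seen. An engineered allele shared by all groups is not reported here. Groups, replicates and sex came from the labels.

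Counts were tested with edgeR 4.0.16 under R 4.3.3 (TMM, filterByExpr, glmQLFit and glmQLFTest, 12 tumors in 1 fit, 8 residual degrees of freedom, biological coefficient of variation 0.44) on 16527 genes, with Benjamini-Hochberg adjustment at 0.05. Standard errors were derived from the fold change and the F statistic. The log2 CPM used a prior count of 2. TPM used exon lengths of GENCODE M21, which held 96.4% of the gene identifiers and 99.75% of the counts. Alternatives were DESeq2 1.42.0, limma 3.58.1 voom, upper-quartile and DESeq2 scaling, no filter, a mean of at least 1 CPM, the compared groups alone, sex as a covariate, a replicate block, tumors of 1 mouse summed and leaving out each tumor. The averaged diet comparison and CPM without TMM for the levels were added after seeing the data. The fit was tested on simulated data with 200 changed genes.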

Additional observations from a re-analysis of the deposited data

How the results depend on the processing

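No gene of the 8 tested was called by edgeR in any comparison, and none was called in 125 of 130 recomputations of these counts. DESeq2 gave 3 calls in KP-PPARαΔ13 against KP, 1 in KPG1-PPARαΔ13 against KPG1, 1 in KPG1-PPARαΔ13 against KP-PPARαΔ13 and 3 for the averaged diet, and the cause was not tested. Leaving out single tumors gave 0 calls in the separate comparisons and 0 to 2 for the averaged diet, with 2 without KPG1-PPARαΔ13 replicate 1. Of the other lists, edgeR called 1 gene each in KPG1-PPARαΔ13 against KPG1, KPG1 against KP and the averaged diet, an erythroid gene each time. The erythroid gene *Hba-a2* was at 0.240, 0.103 and 0.529 CPM in KPG1 and at 13.1 to 122 CPM in the other groups. DESeq2 called 6 in KP-PPARαΔ13 against KP (2.25% of all genes), 9 in KPG1-PPARαΔ13 against KPG1 (1.28%) and 2 between the doxycycline groups (0.938%). It called 7 for the difference between genotypes (1.73%) and 10 for the averaged diet (1.74%). Limma voom called 0 in the 3 comparisons with an edgeR call, and so did tumors of 1 mouse summed in the former pair, the compared groups alone in KPG1-PPARαΔ13 against KPG1 and sex as a covariate in KPG1 against KP. Leave-one-out gave 0 to 1 calls there.

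In KPG1-PPARαΔ13 against KPG1 the log2 fold change of *Gkn2* (0.04) was -0.01 with voom and -0.31 to 0.48 when single tumors were left out. *Tff1* (-0.13) was 0.06 with voom, 0.31 with tumors of 1 mouse summed and -0.80 to 1.39 with single tumors left out. *Tff1* in KPG1 against KP was -0.02 to 2.89, at its lowest without KPG1 replicate 2. Every printed fold change in KP-PPARαΔ13 against KP and for the averaged diet kept its sign under each setting run. The mean number of genes at the threshold was 4.67, 6.0, 5.0 and 6.33 in KP, KP-PPARαΔ13, KPG1 and KPG1-PPARαΔ13 at 5 CPM, and 7.67 in KP-PPARαΔ13 at 0.5 CPM.

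The same replicate numbers recur in the groups but did not pair the tumors, with a correlation of deviations of -0.19 to 0.127 over the 18 pairs with the same number. With a replicate block, 0 genes of the 8 were called in each comparison, and the fold change of *Tff1* in KPG1-PPARαΔ13 against KPG1 was 0.16. Depth limits *Hnf4g*, *Tff2* and, on regular diet, *Cym*, which had few reads.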
